A study of Rattus norvegicus with 156 samples.

Results

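The comparison concerns the lumbar dorsal root ganglia whose spinal nerves were tied in a rat model of neuropathic pain, set against the same ganglia of rats whose nerves were not tied. Its members were taken from the sample titles: every pool titled as an L5 or L6 ganglion of the ipsilateral side, with its 3 Affymetrix rat U34 arrays (sets A, B and C) joined. This gave 10 of the 52 pools of the series and 30 of its 156 arrays. Ligated pools were SNL (L5 and L6 spinal nerves tied, vehicle) and SNL+ GPN (the same surgery with gabapentin), at both levels, which makes 4. Unligated pools were Naive (no surgery, vehicle), Naive+ GPN (no surgery, gabapentin) and Sham (nerves exposed and left untied, vehicle), at both levels, which makes 6. Gabapentin was given intraperitoneally at 100 mg/kg once a day for 7 days, all vehicle rats received saline on that schedule, and tissue was taken 19 to 21 days after surgery. Only ligated rats whose paw withdrawal threshold on the operated side had dropped when tested at 12 to 14 days entered the study, so animals that did not respond to the ligation are not represented. Each group held 8 to 12 rats, and a pool combined 4 to 6 of them. Strain and age are not in the labels. Nor is it stated whether the L5 and L6 pools of a treatment came from the same rats, so the p-values measure the spread between these pools. Of the 3 unligated treatments only Sham included surgery, and in the naive rats the ipsilateral side is a label only.

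A dorsal root ganglion holds the cell bodies of sensory neurons together with satellite glia, Schwann cells, fibroblasts, vessels and resident macrophages. Tying a spinal nerve cuts the axons of the neurons in that ganglion off from their targets. Axotomised sensory neurons are known to switch on transcription factors, growth-associated proteins and a set of neuropeptides, to lower many of the channels, receptors and peptides of their mature state, and to be surrounded by activated glia and macrophages.

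The pools carried the markers of a sensory ganglion. Of 22 sensory neuron markers in the list used, 19 were measurable, and their summed signal was 25980 to 28030 in unligated pools and 10420 to 15950 in ligated pools. The first principal component held 44.7% of the variance and placed the ligated pools at 31.9 to 50.3 and the unligated pools at -30.3 to -22.0. Pools of one arm correlated at 0.932 to 0.970 and pools of different arms at 0.867 to 0.920, over probe sets. Array brightness before normalization went partly with ligation: the median signal of set B was 13.7 to 23 in ligated pools, 25.6 to 35.3 in 5 unligated pools and 8.1 in Sham L6. The ratio of 3' to 5' GAPDH probe sets, a measure of RNA integrity, was 1.08 to 1.2 in ligated pools and 1.18 to 1.58 in unligated pools. The mean log2 value of skeletal muscle genes ran from 4.77 to 7.82 and overlapped between the arms. The part of brightness, RNA integrity and muscle in the results was tested only through the alternative scalings and covariates given beside them.

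Ligation changed many of the measurable transcripts, in both directions. Signals were quantile normalized within each array set, and the change is the difference of mean log2(signal + pseudocount) between ligated and unligated pools with level as a block. Folds are powers of 2 of that difference and understate the change of dim transcripts. With limma and Benjamini-Hochberg adjustment at 0.05, 4132 of 16573 probe sets (24.9%) passed, 1961 higher and 2171 lower. With each gene represented by its brightest probe set, 2263 of 8547 genes (26.5%) passed, of which 1099 were higher (12.9% of all genes tested) and 1164 lower (13.6%). The change was at least 2-fold for 218 higher and 238 lower genes, and at least 4-fold for 33 and 20. For 1972 genes (23.1%) the 4 ligated pools lay beyond all 6 unligated pools. The median change over all genes was 0.0014.

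The balance of rises and falls depended on the scaling. At the deposited scaling, which leaves the brightness differences in place, the median gene fell by 0.25 and 150 probe sets passed higher and 582 lower. With median scaling 1493 passed higher and 2382 lower, at a median gene of -0.06. Small shifts are therefore reported relative to the median gene of the quantile normalized data. The count was 4122 with gabapentin as a covariate. With the 2 levels of each treatment averaged, 2 treatments against 3, it was 3185 (1502 higher, 1683 lower). It was 2034 in the vehicle pools alone and 2154 with Sham as the only control, both with fewer pools.

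**Figure D1:**
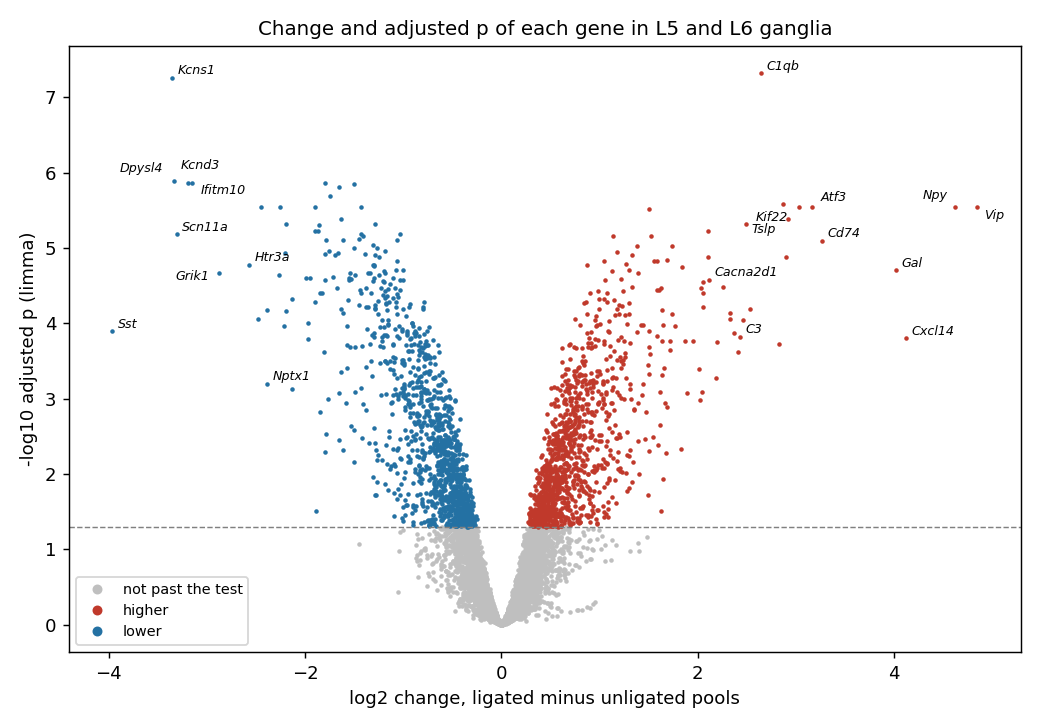
Each point is 1 of 8547 genes; the x axis is the log2 change (ligated minus unligated pools, 4 against 6) and the y axis is -log10 of the limma adjusted p, with a dashed line at 0.05. Red points (1099) passed higher and blue points (1164) lower; Vip, Npy, Cxcl14 and Gal lie farthest to the right, and Sst, Kcns1, Dpysl4 and Scn11a farthest to the left.

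Neuropeptide genes moved in both directions and held the widest changes measured. Of 21 measurable precursors 6 rose, 10 fell and 5 did not pass, with a median of -0.64. Vip, the precursor of vasoactive intestinal peptide, had normalized signals of 252 in SNL L5, 453 in SNL L6, 321 in SNL+ GPN L5 and 398 in SNL+ GPN L6. In the unligated pools it ran from 2.31 to 21.7 with a median of 4.94. All ligated pools lay far above all others, and the change was 4.85 (SE 0.33, 28.8-fold, adjusted p = 2.81e-06). Npy (neuropeptide Y) read 1718, 2796, 1992 and 2650.1 in the ligated pools in that order, against 48.6 to 188 (median 76.8) in the unligated pools. Its change was 4.62 (SE 0.31, 24.7-fold, adjusted p = 2.81e-06). Gal, the precursor of galanin, read 738, 1038, 799 and 1154 against 25.0 to 121 (median 45.5), a change of 4.02 (SE 0.37, 16.2-fold, adjusted p = 1.97e-05). For these 3 peptides the highest unligated signal was that of Sham L5 in each case. With the 2 Sham pools as the only controls the changes were 4.17 for Vip, 3.86 for Npy and 3.08 for Gal, all still past the test. Ucn (urocortin, a relative of corticotropin-releasing hormone) rose by 2.41 (SE 0.32), with 49.1 to 109.7 against 2.43 to 17.7. Vgf, a secretory granule protein cleaved into peptides, rose by 1.51 (SE 0.20), from 102 to 295 up to 318 to 607. The remaining rise was Adcyap1, for which different probe sets passed in opposite directions.

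The falls included the peptides of small-diameter nociceptors. Sst (somatostatin) read 62.8 in SNL L5, 6.33 in SNL L6, 67.3 in SNL+ GPN L5 and 11 in SNL+ GPN L6, against 367 to 678 (median 489) in the unligated pools. The groups did not overlap, the L6 pools were the lowest in both ligated treatments, and the change was -3.96 (SE 0.48, adjusted p = 0.000128). Calca, which encodes calcitonin and calcitonin gene-related peptide, read 697, 174, 736 and 270.4 in the ligated pools against 1099 to 1507 (median 1241). It fell by 1.65 (SE 0.33, adjusted p = 0.00356), again with the L6 pools lowest. Calcb fell by 1.43 (SE 0.15) and Tac1, the substance P precursor, by 1.14 (SE 0.22). Iapp (amylin, a peptide of the calcitonin family) read 2.10 to 2.79 against 30.8 to 50.5, below the pseudocount in all ligated pools, so its change of -2.45 (SE 0.16) understates the fall. Scg2 (secretogranin 2, a granule protein) fell by 2.13 (SE 0.33), from 244 to 544 down to 51.5 to 134. Of 12 measurable enzymes and chaperones that process peptide precursors none rose and 3 fell: Scg5 by 0.94, Pcsk6 by 0.84 and Pcsk2 by 0.69. The share called, 25%, was near that of all genes (26.5%), while falls alone were more frequent than among all genes (13.6%). With Sham as the only control Pcsk6 (adjusted p = 0.065) and Pcsk2 (adjusted p = 0.058) no longer passed.

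Promoter sequence is shown for 3 of the raised peptide genes and for Scg2, because the same letters stand before genes that moved in opposite directions. The stretches are 140 bases upstream of the RefSeq gene start in GRCr8, 5' to 3' on the strand of the gene, for Vip (chr1:44470340-44470479, plus strand), Gal (chr1:210084573-210084712, minus strand), Ucn (chr6:30957946-30958085, plus strand) and Scg2 (chr9:88256867-88257006, minus strand). Capitals mark the cAMP response element TGACGTCA or, where the full element was not found, its partial form TGACG, searched on both strands over 250 bases; every full element also holds the partial form. Matches began at -97 in Vip, -63 in Gal, -110 in Ucn and -123 in Scg2.
Vip: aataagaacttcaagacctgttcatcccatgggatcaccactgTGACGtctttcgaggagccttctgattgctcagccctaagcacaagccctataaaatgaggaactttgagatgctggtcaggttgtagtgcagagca
Gal: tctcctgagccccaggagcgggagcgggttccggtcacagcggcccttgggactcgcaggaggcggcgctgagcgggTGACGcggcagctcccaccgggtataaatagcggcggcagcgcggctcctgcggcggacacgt
Ucn: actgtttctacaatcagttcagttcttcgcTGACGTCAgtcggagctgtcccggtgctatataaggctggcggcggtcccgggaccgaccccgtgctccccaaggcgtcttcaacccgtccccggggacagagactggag
Scg2: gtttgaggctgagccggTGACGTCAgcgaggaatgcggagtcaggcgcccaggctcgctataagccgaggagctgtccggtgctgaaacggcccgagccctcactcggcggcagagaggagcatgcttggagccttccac
The full element was also found at -90 in Vgf. No match to either form was found for Npy or Sst. The search depends on the annotated gene start and on a listed promoter, so this does not show that their promoters lack the element. Among the 7106 tested genes matched to a promoter, 2.9% held the full element and 29.5% the partial form. The full element stood in 8 of 167 matched genes that were at least 2-fold higher (4.79%) and in 13 of 187 that were at least 2-fold lower (6.95%), and in 2.3% of all higher and 3.83% of all lower genes. The partial form stood in 23.4% of the genes at least 2-fold higher and 27.8% of those at least 2-fold lower, both under the 29.5% of all. A match is a description of letters and no sign of binding.

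**Figure D2:**
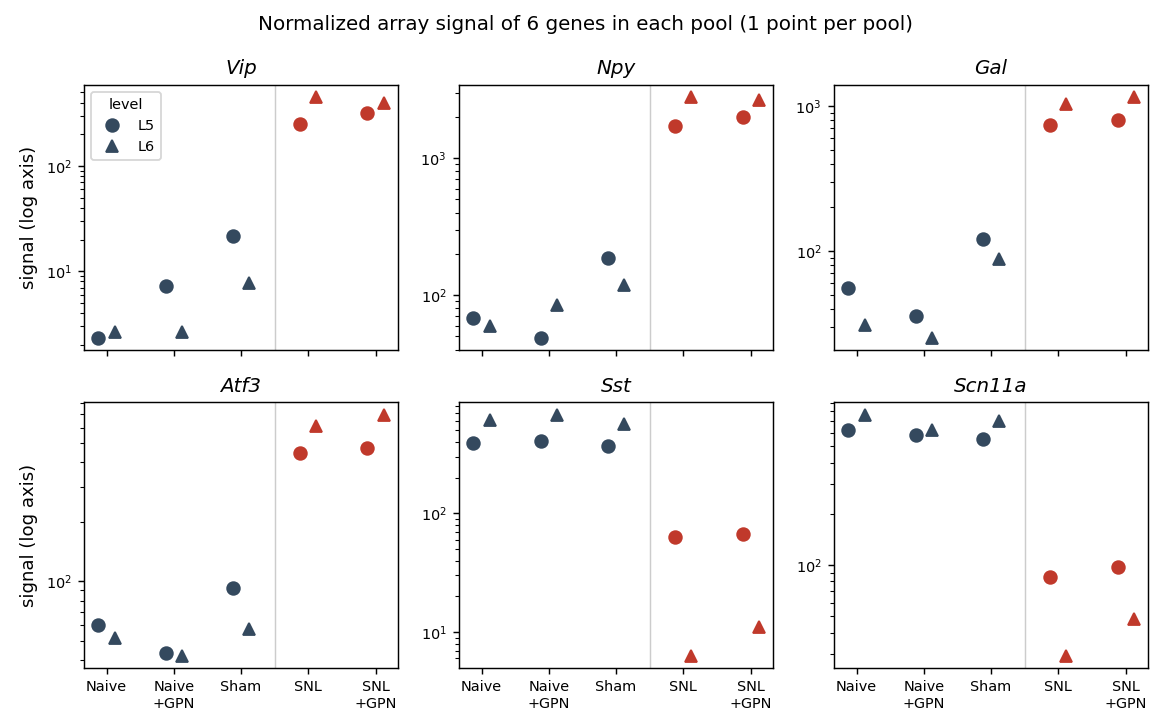
Normalized signal (log axis) of 6 genes used to mark the injured state, 1 point per pool, circles for L5 and triangles for L6, blue for the 6 unligated and red for the 4 ligated pools. Vip, Npy, Gal and Atf3 lie higher in all ligated pools, Sst and Scn11a lower, and for Sst the ligated L6 pools (6.33 and 11) lie below the ligated L5 pools (62.8 and 67.3).

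Of 50 measurable transcription factors of injury and activity 24 rose and 3 fell, with a median of 0.39. Atf3, a stress-induced factor widely used to mark axotomised neurons, read 446, 612, 474 and 698 in the ligated pools against 42.1 to 92.8 (median 54.6), a change of 3.16 (SE 0.21, adjusted p = 2.81e-06). Jun, its partner in AP-1 dimers, read 590.4, 468, 601 and 470.3 against 94.6 to 240.2, a change of 1.63 (SE 0.21). No unligated pool reached a ligated one for either gene. Egr1, an immediate early factor, rose by 1.24, Sox11 (a developmental factor) by 1.21 and Crem (a cAMP-responsive factor) by 1.16; with the GAPDH ratio as a covariate Crem no longer passed. Isl1, which specifies sensory neurons, fell by 1.30 (SE 0.12), from 68.9 to 82.3 down to 21.8 to 29.8.

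Of 51 measurable genes of axon growth and regeneration 22 rose and 6 fell, with a median of 0.28. Kif22, listed here as a regeneration gene and known as a mitotic kinesin, read 394, 512, 329 and 372 against 26.3 to 62.4 (median 47.3), a change of 3.03 (SE 0.20, 8.17-fold). Csrp3, a muscle LIM protein also made by injured sensory neurons, read 129, 228, 183 and 223 against 11.2 to 36.4, a change of 2.90 (SE 0.25). The median change of 25 skeletal muscle genes was 0.26, with no rise and 1 fall, and 1.2 with 5 rises with Sham as the only control. With the mean log2 value of these muscle genes as a covariate, Csrp3 kept its call and direction. So did all 140 named genes past the test, and 4007 probe sets passed. The part of muscle in the Csrp3 result was not tested in any other way. Reg3b, a secreted regenerating protein, rose by 2.82 (SE 0.36) and Tgm1, a transglutaminase, by 2.53 (SE 0.28). Gadd45a, a growth arrest and DNA damage protein, rose by 2.05, and Ecel1, a membrane protease induced by nerve injury, by 1.95. Gap43 and Sprr1a, both growth cone associated proteins, rose by 1.17 (1114 to 1549 against 457 to 808) and 1.13. At the deposited scaling Gap43 (adjusted p = 0.086), Sprr1a (adjusted p = 0.24), Egr1 (adjusted p = 0.16) and Sox11 (adjusted p = 0.14) did not pass. The falls included Dpysl4, a collapsin response mediator, which read 17.1, 31.5, 12.0 and 13.6 against 189 to 283, a change of -3.34 (SE 0.19, adjusted p = 1.30e-06), and Nrn1 (neuritin), with -1.95.

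Arg1 (arginase) rose by 2.05 and Gch1, the first enzyme of tetrahydrobiopterin synthesis, by 1.69, while Ass1 (argininosuccinate synthase) fell by 2.22 to signals of 1.60 to 5.10, at or below the pseudocount. In the list of tetrahydrobiopterin, nitric oxide, arginine and polyamine enzymes 5 of 22 rose and 3 fell. The share called was 36.4% against 26.5% of all genes, and the falls alone were near the 13.6% of all genes. Axon guidance genes were split, with 6 of 30 higher and 6 lower, 40% against 26.5% of all genes. Among them Sema3c, a secreted semaphorin, rose by 1.59.

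Neuronal cytoskeleton genes fell more often than they rose: 17 of 38 were lower and 3 higher, with a median of -0.30. Nefl, the light neurofilament subunit, read 1861, 1318, 2232 and 1585 in the ligated pools against 4186 to 4971 (median 4795), a change of -1.43 (SE 0.11, adjusted p = 6.56e-06). Nefm and Nefh, the medium and heavy subunits, fell by 1.15 and 1.23, and Mapt (tau) by 1.2. Tubb4b, a beta tubulin, was among the rises, with 1.08 (SE 0.24, adjusted p = 0.00703), a call lost with the GAPDH ratio as a covariate.

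Sodium and potassium channel genes fell more often than they rose. Of 12 measurable sodium channel genes and channel partners 8 fell and none rose, with a median of -0.86. Scn11a, the persistent sodium channel of nociceptors, read 85.0, 29.3, 97.9 and 48.2 in the ligated pools against 549 to 767 (median 623), a change of -3.31 (SE 0.25, 9.91-fold, adjusted p = 6.56e-06). Scn10a, the tetrodotoxin-resistant channel of the same cells, read 89.5, 64.7, 92.8 and 61.6 against 320.3 to 473 and fell by 2.26 (SE 0.15). Scn1a, found in large myelinated neurons, fell by 2.20 (SE 0.19), and Fgf12, an intracellular partner of sodium channels, by 2.19 (SE 0.16). Scn3a, the embryonic channel known to return after axotomy, read 36.9 to 72.6 against 25.3 to 56.8, and its change of 0.52 (SE 0.22) did not pass (adjusted p = 0.103). Its arms overlapped. In the vehicle pools alone it passed, with 0.77 (adjusted p = 0.038), and was then the 1 rise of the list; in the L5 pools alone the list gave 2 rises.

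Potassium channels gave 22 falls and no rise among 37, with a median of -0.77. Kcns1, a modulatory subunit of Kv2 channels, read 11.8, 5.12, 11.9 and 5.79 in the ligated pools against 111 to 169 (median 139.6), a change of -3.36 (SE 0.13, 10.2-fold, adjusted p = 5.51e-08). All ligated pools lay far below all others. Kcnd3 and Kcnd1, pore subunits of A-type currents, fell by 3.19 (to 1.75 to 4.74, below the pseudocount) and 1.63, and their partner Kcnip3 by 1.79, a call lost with the GAPDH ratio as a covariate. Kcnab1, a beta subunit, fell by 1.70.

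Among 10 calcium channel genes 1 rose and 2 fell, 30% against 26.5% of all genes. The rise was Cacna2d1, the alpha-2-delta-1 subunit to which gabapentin binds. It read 306 in SNL L5, 393 in SNL L6, 295 in SNL+ GPN L5 and 460.3 in SNL+ GPN L6, against 49.9 to 116 (median 79.2), a change of 2.11 (SE 0.20, 4.33-fold, adjusted p = 2.63e-05). The pools with and without gabapentin were interleaved within both arms. The T-type channel Cacna1h fell by 1.30 and the beta subunit Cacnb3 by 0.74. Cacna1h did not pass with Sham as the only control (-0.81, adjusted p = 0.13), and Cacnb3 did not with the GAPDH ratio as a covariate.

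Ligand-gated and sensory channels gave 9 falls and no rise among 22, with a median of -0.37. Htr3a, a serotonin-gated channel, read 127, 57.6, 132 and 66.1 against 439.8 to 692 (median 573), a change of -2.57 (SE 0.23). Trpv1, the capsaicin and heat receptor, read 34.2, 31.9, 41.7 and 43.5 against 121 to 202, a change of -1.79 (SE 0.14). Neither gene had overlapping arms. Chrna3, a nicotinic receptor subunit, fell by 2.19, and the ATP-gated channels P2rx6 and P2rx3 fell by 1.41 and 0.76. Glutamate receptor and transporter genes gave 4 falls and 1 rise among 21, a share of 23.8%, near the 26.5% of all genes. Grik1, the kainate receptor subunit of nociceptors, read 13.4, 2.37, 13.9 and 9.91 against 79.1 to 153, a change of -2.88 (SE 0.27, 7.34-fold). Grik3 and Grm4 fell by 1.02 and 1.01, the former with overlapping arms and not past the test with the GAPDH ratio as a covariate. Of 13 GABA and glycine genes 3 fell and 1 rose, 30.8% against 26.5% of all genes. Gabbr2, a GABA-B subunit, fell by 1.29 and Gabra5, a GABA-A subunit, rose by 1.2.

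Receptors of peptides, amines and lipid mediators gave 3 rises and 5 falls among 36, a share near that of all genes; Adra2c, an adrenergic receptor, fell by 0.98. Of 11 neurotrophin and GDNF family genes 2 rose and 4 fell, 54.55% against 26.5% of all genes. The fallers were Gfra2 (the neurturin receptor, -1.14), Ret (the shared signalling receptor, -0.97), Ngfr (the p75 receptor, -0.93) and Ntrk2 (the BDNF receptor, -0.69, adjusted p = 0.059 with Sham as the only control). The risers were Gfra3 (the artemin receptor, 0.88) and Gfra1 (the GDNF receptor, 0.74). All 6 had arms that did not overlap, which also held for 1769 of all 2263 called genes.

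Genes of vesicle release fell in 23 of 44 cases and rose in 4, with a median of -0.62. Vamp1, a vesicle SNARE protein, read 279.5, 179, 364 and 254 against 848 to 1059 (median 991), a change of -1.86 (SE 0.14). Nptx1, a secreted pentraxin of synapses, fell by 2.39, Lin7b, a scaffold protein, by 1.85 and Sv2b, a vesicle glycoprotein, by 1.38. Second messenger enzymes, Rgs genes and calcium-binding proteins gave 29 falls and 5 rises among 72. Rgs4, which shortens G-protein signals, read 428, 176, 433 and 209.6 against 1085 to 1478, a change of -2.13 (SE 0.22). Vsnl1 (a calcium sensor) fell by 2.39, Tesc (a calcineurin-like calcium-binding protein) by 1.97 and Prkca, a protein kinase C, by 1.49. Pvalb, the calcium buffer of proprioceptive neurons and of muscle, fell by 1.88 (SE 0.57, adjusted p = 0.0309) with overlapping arms: it read 88.8, 18.1, 595 and 40.3 against 83.2 to 583. Its highest value was that of SNL+ GPN L5, the pool with the highest muscle mean (7.82). Pvalb is itself a member of the skeletal muscle list and the 1 fall of that list. With the muscle mean as a covariate it kept its call and direction. Pvalb no longer passed without SNL L5 (-1.59), SNL L6 (-1.54), SNL+ GPN L6 (-1.83) or Naive+ GPN L6 (-1.76). It also did not pass with Sham as the only control (-1.17, adjusted p = 0.28), with the GAPDH ratio as a covariate (adjusted p = 0.055) or without SNL at both levels (-0.98, adjusted p = 0.39).

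**Figure D3:**
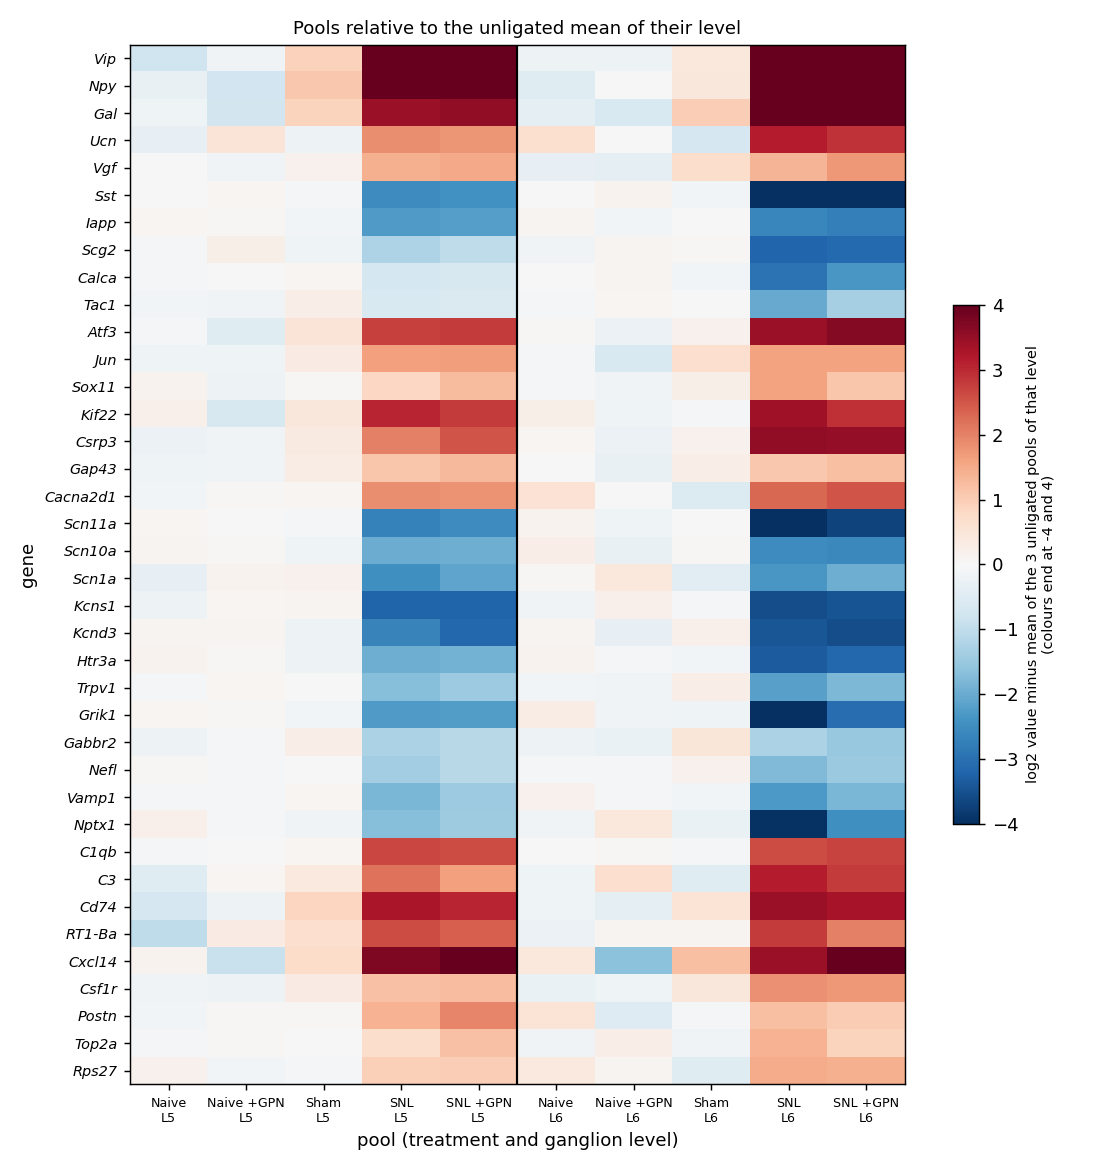
Rows are 38 genes in the order neuropeptides, transcription and growth genes, channels and synaptic genes, immune and other genes; columns are the 10 pools, L5 at the left and L6 at the right. Colour gives the log2 value minus the mean of the 3 unligated pools of that level and ends at -4 and 4; the SNL and SNL+ GPN columns share their colours, and Sst, Scg2 and Calca are deeper blue at L6.

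Of 21 measurable complement genes 12 rose and 1 fell, with a median of 0.57. C1qb, a chain of the first recognition component, read 314, 305, 297 and 328 in the ligated pools against 40.8 to 47.6 (median 44.5), a change of 2.65 (SE 0.09, 6.27-fold, adjusted p = 4.81e-08). It had the lowest adjusted p of the comparison and changed by 2.65 at each level. C1qa had a lowest ligated signal of 249 against 59.6 to 98.3, a change of 2.11 (SE 0.16). C3, the central component, read 74.9, 118, 50.4 and 90.7 against 4.30 to 18.0, a change of 2.43 (SE 0.30). The protease C1s rose by 2.04 (SE 0.32), but with Sham as the only control by 1.45 with an adjusted p = 0.062. The gene that fell was Cd55, which dissociates complement convertases on cell surfaces, by 0.93 (SE 0.16).

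In the MHC class II list 10 of 14 rose and 2 fell, with a median of 1.35. Cd74, the invariant chain, read 1541, 1613, 1311 and 1451 against 95.9 to 283 (median 129.6), a change of 3.27 (SE 0.26, 9.62-fold). RT1-Ba read 604, 846, 521 and 496 against 44.0 to 154, a change of 2.46, and RT1-Bb and RT1-DMb rose by 2.49 and 2.33. These encode class II chains and the peptide exchange factor. The 2 fallers were the cathepsins Ctsb and Ctsd, lysosomal proteases present in most cells. Neither passed with median scaling or at the deposited scaling. Ctss, the cathepsin of antigen presenting cells, rose by 2.04. In the class I list 6 of 19 rose, among them the immunoproteasome subunits Psmb8 (0.73) and Psmb9 (0.71), the activator Psme2 (0.65) and the class I chain RT1-T24-4 (0.59). None of the 19 passed with Sham as the only control, and at the deposited scaling none passed and Psme2 stood at -0.0027. Class I chains are a multigene family whose probes can share transcripts.

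Of 35 chemokine, cytokine and receptor genes 14 rose and 1 fell, with a median of 0.50. Cxcl14, a chemokine of epithelia and glia, read 189, 269, 496 and 448 against 2.12 to 51.9 (median 14.4), a change of 4.12 (SE 0.51, 17.4-fold, adjusted p = 0.000157). Its unligated pools were widely spread and Sham L6 was the highest of them. Tslp, an epithelial cytokine, read 40, 68.6, 54.7 and 62.8 against 1.17 to 3.67, below the pseudocount in all unligated pools, a change of 2.92 (SE 0.21). Ccl6 rose by 1.72 and Il18 by 1.21. Outside the lists, Slpi, a secreted protease inhibitor, read 52.6 to 81.1 against 2.04 to 4.44 and rose by 2.87 (SE 0.18), and Clec7a, the dectin-1 receptor of myeloid cells, rose by 2.37. Among 20 interferon response genes 10 rose and 2 fell. Gbp2 and Mx2, both induced by interferons, rose by 1.87 and 1.64. Ifitm10, a family member not known as an interferon target, read 10.3, 9.75, 15.4 and 9.36 against 117 to 193, a change of -3.15 (SE 0.18, 8.90-fold). The gp130 family list gave 3 rises and no fall among 11, 27.3% against 26.5% of all genes called and 12.9% of all genes higher. Socs3, the feedback inhibitor of that pathway, rose by 1.22. The median of the list was 0.18; at the deposited scaling it was -0.18, which is 0.08 above the median gene of that scaling.

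Cxcl14 and Ifitm10, which moved in opposite directions, are shown because both hold the AP-1 element TGAGTCA, the site bound by Jun dimers, at -99. The stretches are again 140 bases before the RefSeq start in GRCr8, chr17:8323010-8323149 on the plus strand for Cxcl14 and chr1:206953324-206953463 on the minus strand for Ifitm10, which has 3 promoters in the table. Capitals mark the element.
Cxcl14: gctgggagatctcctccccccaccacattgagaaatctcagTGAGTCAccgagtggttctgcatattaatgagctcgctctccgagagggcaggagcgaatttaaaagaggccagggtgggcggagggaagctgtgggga
Ifitm10: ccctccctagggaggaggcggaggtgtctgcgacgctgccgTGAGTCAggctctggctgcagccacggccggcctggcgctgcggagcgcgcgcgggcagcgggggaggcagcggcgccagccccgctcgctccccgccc
The element was found on either strand in 3.53% of the matched tested genes, in 11 of 167 genes at least 2-fold higher (6.59%) and in 3 of 187 at least 2-fold lower (1.6%). Among all higher genes the share was 3.83% and among all lower genes 3.52%, both near that of the tested genes. Sprr1a held it at -147 and -117, and Gbp2 at -72.

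Genes of the extracellular matrix rose in 34 of 58 cases and fell in 3, with a median of 0.60. Mgp (matrix Gla protein) read 3382, 3109, 1360.2 and 1947 against 610.3 to 821, a change of 1.72 (SE 0.23), with the vehicle pools above the gabapentin pools at both levels. Gpc3, a glypican, rose by 1.49 and Postn (periostin) by 1.4. Fbln2, a basement membrane fibulin, was among the falls, with -1.79. Growth factors and their receptors gave 13 rises and 5 falls among 52, including Csf1r, the macrophage growth factor receptor (1.5), Tgfbr1 (1.16) and Pdgfra (1.13). The share called was 34.6% against 26.5% of all genes, and the falls alone were under the 13.6% of all genes. Lipid carriers gave 9 rises and 6 falls among 26. Apod, apolipoprotein D of glia and fibroblasts, read 3827, 3503, 4024 and 4186 against 1178 to 2018, a change of 1.39. Crabp2 (retinoic acid binding) rose by 1.84 and Pltp (phospholipid transfer) by 1.27. In the prostaglandin and leukotriene list 3 of 15 rose and none fell, 20% against 26.5% of all genes called and 12.9% of all genes higher. The risers were Anxa1 (annexin 1, 1.30), Pla2g4a (the cytosolic phospholipase, 1.06) and Alox5ap (0.90, adjusted p = 0.089 with Sham as the only control).

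Ribosomal protein genes rose in 43 of 57 cases with no fall, at a median of 0.61. Rps19 read 1295, 1295, 1275 and 1370.1 against 665 to 737 (median 716), a change of 0.88 (SE 0.08), and Rps27 rose by 1.22, Rpl36a by 1.08 and Rpl7 by 0.87. Many ribosomal genes have processed pseudogenes that a probe set may also detect. Cell cycle genes rose in 21 of 37 cases with no fall, at a median of 0.53, with Mcm5 (replication licensing) at 1.4, Mki67 (proliferation marker) at 1.07 and Top2a at 1.04. Mki67 did not pass with Sham as the only control (0.96, adjusted p = 0.087). Mitochondrial respiratory chain genes fell in 17 of 79 cases and rose in 1, at a median of -0.19. Their share called, 22.8%, was near the 26.5% of all genes, while falls alone were more frequent than among all genes (13.6%). Ndufs3 and Ndufab1 of complex I fell by 0.64 and 0.63 and Atp5f1a of the ATP synthase by 0.53, each without overlap between the arms; Ndufs3 missed the threshold with Sham as the only control (adjusted p = 0.057). Cholesterol synthesis gave 3 falls and no rise among 20, a share of falls near that of all genes (13.6%), among them Cyp51 (-0.63) and Sqle (-0.60). Stress, chaperone and antioxidant genes were split, with 9 of 57 higher and 11 lower, 35.1% against 26.5% of all genes. Cp (ceruloplasmin) rose by 1.73 and Gpx1 (a glutathione peroxidase) by 0.93, while Mt3, the neuronal metallothionein, fell by 1.53 and Nqo1 (a quinone reductase) by 0.98.

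Several of these list counts shrank under other settings. With Sham as the only control, which leaves 6 of the 10 pools, matrix genes gave 13 rises, cell cycle genes 7, transcription factors 12, growth factors 4, complement genes 7 and mitochondrial genes 6 falls. With the GAPDH ratio as a covariate potassium channels gave 11 falls, ribosomal genes 28 rises, cell cycle genes 9 and transcription factors 10. At the deposited scaling ribosomal and cell cycle genes each gave 1 rise, and matrix genes and transcription factors 2. Sodium channels gave 5 falls there and synaptic genes 15. In the class II list 7 of 14 genes still rose, while Ctsb and Ctsd no longer passed. The ribosomal median at the deposited scaling was 0.38 and the potassium channel median -0.97. Relative to the median gene of that scaling (-0.25) they stood at 0.63 and -0.72. The medians of the growth factor, lipid and prostaglandin lists were -0.02, -0.08 and -0.13 there, which is 0.23, 0.17 and 0.12 above that median gene. At the deposited scaling interferon genes gave 1 rise and 1 fall, chemokine and cytokine genes 3 rises (8 with the GAPDH ratio as a covariate) and growth factors no rise and 1 fall. Of the genes named with a rise or fall above, Pcsk6, Pcsk2, Egr1, Sox11, Crem, Socs3, Gap43, Sprr1a, Tubb4b, Cacnb3, P2rx3, Grik3, Gabra5, Adra2c, Gfra3, Gfra1, Ntrk2, Mx2, Cd55, Psmb8, Psmb9, Psme2, RT1-T24-4, Il18, Csf1r, Tgfbr1, Pdgfra, Anxa1, Pla2g4a, Alox5ap, Postn, Mcm5, Mki67, Top2a, Rpl36a, Rps19, Rpl7, Ndufs3, Ndufab1, Atp5f1a, Cyp51, Sqle, Cp and Gpx1 did not pass at that scaling.

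**Figure D4:**
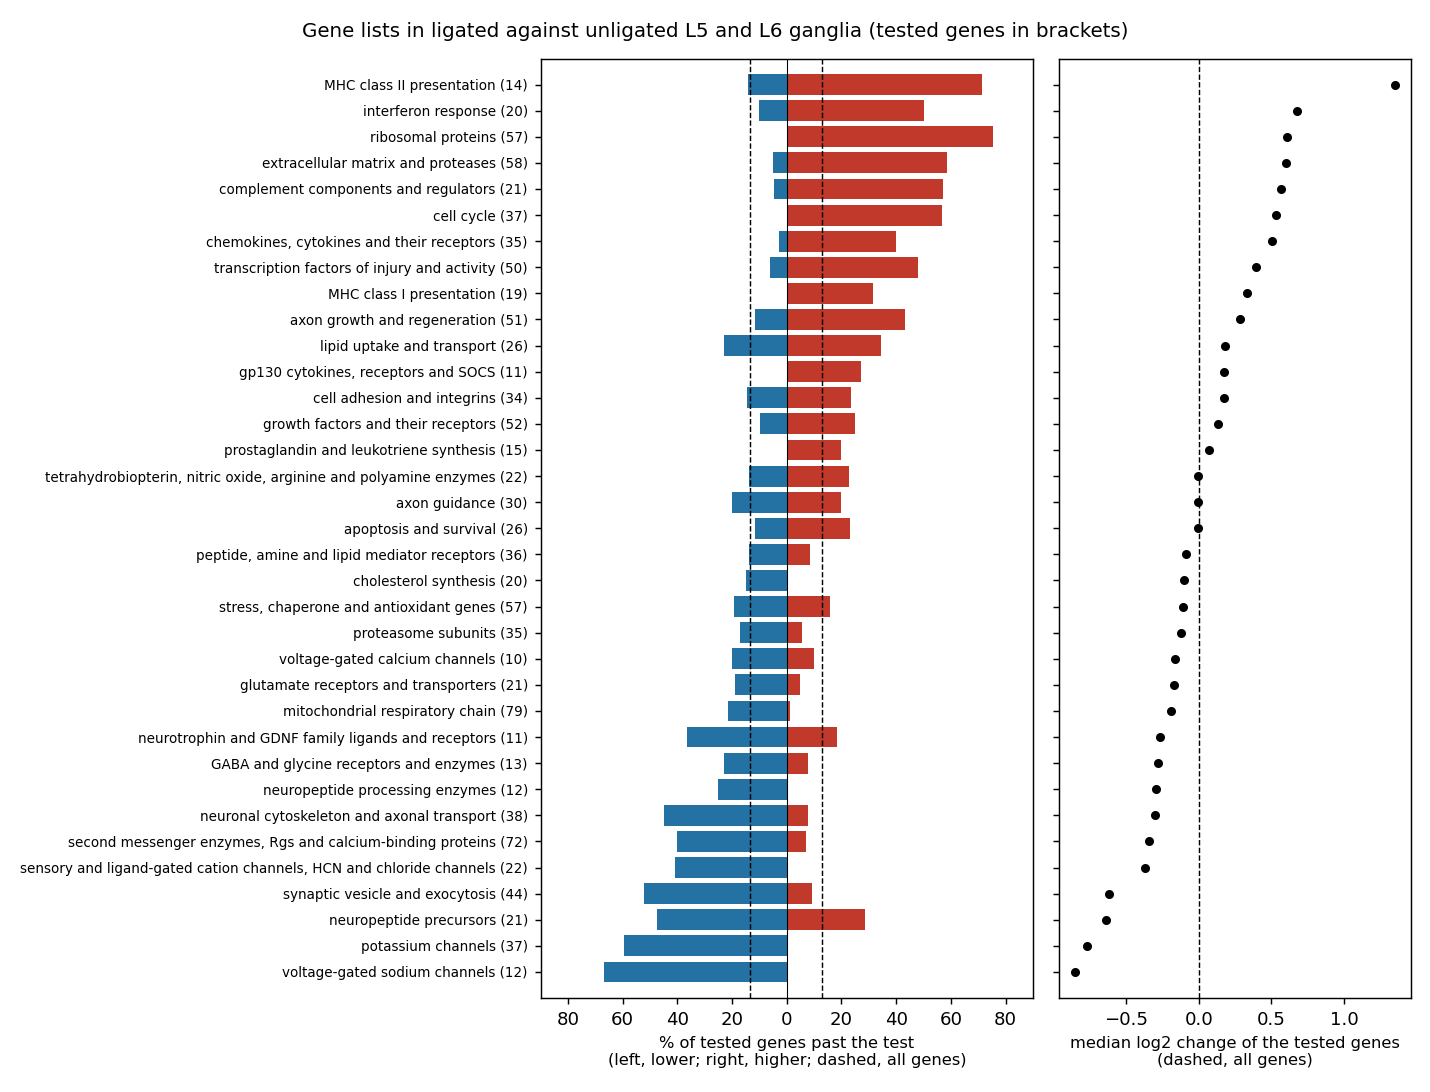
The left panel gives, for 35 gene lists with their tested genes in brackets, the percentage of genes that passed lower (blue, to the left) and higher (red, to the right), with dashed lines at the shares of all genes (13.6% and 12.9%). The right panel gives the median log2 change of each list, from 1.35 for MHC class II presentation to -0.86 for sodium channels, with a dashed line at the median of all genes (0.0014).

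Markers of cell types shifted with ligation as well, and in pooled tissue fewer cells of a type and less RNA per cell cannot be told apart. Of 19 sensory neuron markers 18 fell and none rose, with a median of -1.23; the exception was Ntrk3, which did not pass. Of 20 macrophage markers 15 rose and none fell, with a median of 1.53 and a summed signal of 5203 to 7189 against 1721 to 2384. Lyz2 (lysozyme) read 1372 to 2411 against 306 to 561, a change of 2.05, and the complement genes C1qa and C1qb belong to this list as well. Of 14 fibroblast and perineurium markers 11 rose, with summed signals of 11050 to 17530 against 7048 to 8598; 4 rose with Sham as the only control, 4 with the GAPDH ratio as a covariate and 1 at the deposited scaling. Dcn (decorin) rose by 1.02 (SE 0.20, adjusted p = 0.00305), a call lost with the GAPDH ratio as a covariate. Satellite glia gave 2 rises and 4 falls among 8, summed at 5720 to 6267 against 6958 to 8110. These became 1 rise and 2 falls with Sham as the only control and 1 of each with the GAPDH ratio as a covariate. At the deposited scaling the list gave no rise and 1 fall. Sostdc1 rose by 0.92 and Aldoc (aldolase C) fell by 0.84. Schwann cell and myelin markers gave 3 rises and 1 fall among 14 with overlapping sums of 10600 to 16910 and 11580 to 18380. Their share called was 28.6%, near the 26.5% of all genes. Cldn11, a tight junction claudin of myelin and meninges, rose by 1.46, but not past the test with Sham as the only control (adjusted p = 0.12). Skeletal muscle gave no rise and 1 fall among 25, with sums of 972 to 11720 against 857 to 8586, and 5 rises with Sham as the only control. Endothelium gave 2 rises among 13, T and NK cells 2 among 5, neutrophils and mast cells none among 7. The endothelial share called (15.4%) was under that of all genes (26.5%) and, being rises only, near the 12.9% of all genes that were higher. The share called of T and NK markers was 40%, on only 5 genes. At the deposited scaling Dcn, Sostdc1 and Cldn11 did not pass. Apart from the muscle covariate, the part of these shifts in the gene results above was not tested.

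The response was compared between the levels by setting L6 minus L5 of each ligated treatment against the same difference in the unligated treatments. No probe set of 16573 passed (0%) with limma, the lowest adjusted p was 0.178, and 1293 had an unadjusted p under 0.05. With 2 differences against 3, this does not show that the levels responded alike. Sst changed by -2.48 at L5 and -5.45 at L6, a difference of -2.98 (SE 0.34, adjusted p = 0.178). Scg2 changed by -1.12 and -3.14 (difference -2.02, SE 0.21, adjusted p = 0.178), and Calca by -0.66 and -2.64 (difference -1.97, SE 0.35, adjusted p = 0.495). Scn11a changed by -2.61 and -4.01. Dpysl4 (-3.40 and -3.27), Jun (1.65 and 1.62) and Gap43 (1.21 and 1.14) had nearly equal values at L5 and L6.

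The change in L5 and L6 was also set against that in the spared L4 ganglion of the same side, whose spinal nerve was not tied. Of 16814 probe sets 9 passed (0.0535%), all of them lower, and 8 of these also passed lower in L5 and L6 themselves; 3553 had an unadjusted p under 0.05. Sst changed by -3.99 in L5 and L6 and by -0.41 in L4, a difference of -3.58 (SE 0.31, adjusted p = 0.0439). Scn11a changed by -3.33 and -0.54, a difference of -2.80 (SE 0.22, adjusted p = 0.0433). Grik1 changed by -2.89 and -0.47 (difference -2.42, SE 0.18, adjusted p = 0.0433) and Fgf12 by -2.19 and -0.10 (difference -2.09, SE 0.21, adjusted p = 0.0473). Calcb fell by 1.44 in L5 and L6 and stood at 0.58 in L4 (difference -2.01, SE 0.18, adjusted p = 0.0439). These calls rest on each treatment: leaving out any 1 of the 5 (Naive, Naive+ GPN, Sham, SNL or SNL+ GPN) left none. They also depend on the scaling, with none past the test after median scaling and 649 at the deposited scaling.

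The change in L4 was not tested on its own. It stood at 2.67 for Npy, 2.35 for Vip, 1.91 for Gal, 1.39 for Atf3, 1.45 for Cd74 and 1.00 for Cacna2d1. The differences from L5 and L6 were 1.97 (SE 0.38, adjusted p = 0.0798) for Npy, 2.45 (SE 0.65, adjusted p = 0.12) for Vip and 1.79 (SE 0.37, adjusted p = 0.0866) for Atf3, none past the test. Kcns1 changed by -0.22 in L4, and its difference of -3.15 (SE 0.46) did not pass (adjusted p = 0.063).

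**Figure D5:**
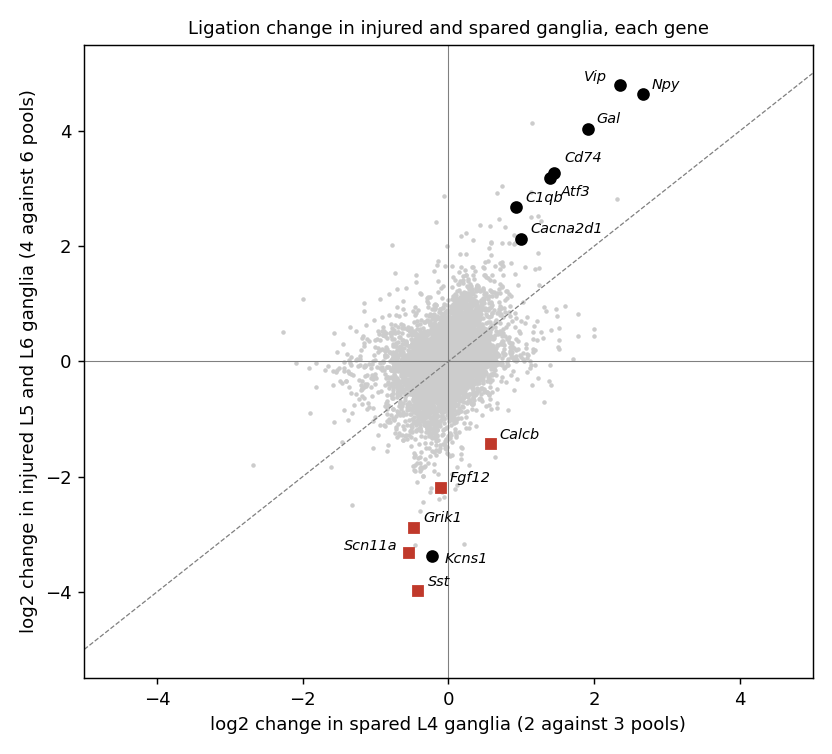
Each point is a gene; the x axis is the log2 change with ligation in the spared L4 ganglia (2 against 3 pools) and the y axis that in the injured L5 and L6 ganglia (4 against 6 pools), with the line of equal change dashed. Red squares are the 5 genes whose difference passed the test (Sst, Scn11a, Grik1, Fgf12 and Calcb) and black circles are named genes that did not; Vip, Npy and Gal lie right of 0 on the x axis as well.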

How the data were processed

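RNA of pooled rat ganglia was measured on Affymetrix U34 sets A, B and C. The values are linear intensity signals as deposited, made with MAS5 per the submitters' processing notes; neither its version nor its scaling target is given. The platform annotation named 1 gene for 18178 of the 26379 probe sets, several for 391 and none for 7633; the other 177 are array controls. Symbols of 18122 were updated through the RefSeq gene table.

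The 2% trimmed means differed between arrays by 2.62-, 3.95- and 2.58-fold (sets A, B and C), so the 10 arrays of each set were quantile normalized. Values are log2(signal + pseudocount), with the set's 20th percentile (5.8, 4.5 and 6.2) as pseudocount. Probe sets above the 40th percentile in at least 4 pools were tested with limma 3.58.1 in R 4.3.3 (eBayes with trend, level as a block, treatment as a random block with consensus correlation 0.0714), and p-values are Benjamini-Hochberg adjusted over all tested. All adjusted p-values in the text are from limma. The procedure was also run on simulated data with independent pools and no brightness differences. That run cannot show how related pools or the scaling affect the calls. A gene is represented by its kept probe set of highest mean signal; of 2791 genes with several, 1107 had a call and 3 had calls in both directions. Array number limits the precision.

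The members and gene lists were chosen with earlier results of these data known. The rule for named genes took the 6 markers, the 10 largest rises and falls among genes past the test whose arms did not overlap and whose lower group was above the pseudocount, 4 more of each at or below it, up to 4 called members of each list with the largest change, members not past the test with a change of at least 0.5 or in lists with at most 3 of them, and up to 5 genes called against L4 or between levels. The text gives part of these. Outside the rule, chosen after their values were seen, are Adcyap1, Aldoc, Calca, Cd55, Cldn11, Crem, Ctsb, Ctsd, Ctss, Dcn, Ecel1, Gadd45a, Gap43, Gfra1, Kcnd1, Lyz2, Nrn1, Ntrk2, P2rx3, Prkca, Scg2, Sostdc1, Sox11, Sprr1a, Tac1, Tubb4b, Ucn and Vgf. Promoters are from RefSeq GRCr8. Other scalings, filters, pseudocounts, covariates, control groups and omitted pools were tried.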

Additional observations from a re-analysis of the deposited data

Results flagged for a closer look

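Of 292 groups of pools examined, 11 held a pool whose gap to its nearest neighbour was wide for the group's range. Chance gives about 1 in 20, so this number is not above that expected by chance. Among the unligated pools, Sham L6 stood apart for Vgf (295, the highest), Ret (562, the highest) and Sv2b (372, the lowest), Naive L5 for RT1-Ba (44, the lowest), and Naive+ GPN L6 for RT1-DMb (18.6, the lowest) and Top2a (41.4, the highest). Among the ligated pools, SNL L6 stood apart for P2rx6 (22.3, the lowest) and Lyz2 (2411, the highest) and SNL L5 for Sv2b (243, the highest). Before normalization, Sham L6 also had outlying median signals on set B (8.1) and set C (14.5).

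The change in the injured ganglia differed from that in L4 by a test of the difference (limma) for 5 genes: -3.58 for Sst, -2.80 for Scn11a, -2.42 for Grik1, -2.09 for Fgf12 and -2.01 for Calcb, on the log2 scale.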

How the results depend on the processing

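The counts of probe sets past the test (4132, with 1961 higher and 2171 lower) moved with several settings. At the deposited scaling 732 passed (150 higher, 582 lower); in the vehicle pools only 2034 (938 and 1096); with Sham as the control group 2154 (1056 and 1098); in L5 pools only 2602 (1116 higher); in L6 pools only 1395 (701 and 694); and with the GAPDH ratio as a covariate 2361 (1104 and 1257). Leaving out 1 pool or 1 treatment gave 1973 to 4063 past the test, 928 to 1912 higher and 1045 to 2151 lower, the lowest without SNL at both levels. For the difference from L4, where 9 passed, the count was 649 at the deposited scaling, 205 with the 40th percentile as pseudocount and 0 with median scaling, with pseudocount 1, without the filter and without each treatment in turn (0 to 0). For L6 minus L5 it was 3 with the 40th percentile as pseudocount. Of 140 named genes past the test, 90 kept call and direction at the deposited scaling and 49 lost the call; Psme2 reversed there, to -0.0027 (adjusted p = 0.998). In 109 of the 140 the call held under every alternative run other than that scaling. The settings with fewer pools have fewer samples by construction; for the others the cause was not tested. No paired analysis was possible because each treatment has 1 pool per level and the labels do not link rats across treatments. Dim probe sets near the pseudocount have understated folds.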

Other observations

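Of 26 apoptosis genes 6 were higher and 3 lower (median -0.01), and of 34 adhesion genes 8 were higher and 5 lower (median 0.17, and -0.00 at the deposited scaling, 0.25 above the median gene there). The shares called were 34.6% and 38.2% against 26.5% of all genes, and the falls alone were near the 13.6% of all genes. Of 35 proteasome subunits 6 were lower and 2 higher, 22.9% against 26.5% of all genes. The 2 higher were the immunoproteasome subunits Psmb8 and Psmb9, and no subunit passed at the deposited scaling.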
